A study of Mus musculus with 12 samples.

Results

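The genes described here are 8 rows of the 28987 in the deposited gene table, chosen by symbol: the Ly6 antigens Ly6g, Ly6c1 and Ly6c2, the resistin-like gene Retnlg, and the stefin A genes Stfa1, Stfa2, Stfa2l1 and Stfa3. The series holds 12 RNA-seq libraries of sorted neutrophils of FVB mice, which fall into 4 groups of 3: bone marrow (BM) and peritoneum (PT) of wild-type mice (BM WT and PT WT), and the same sites of MRP8-Bcl2 mice (BM Bcl2 and PT Bcl2), which express human Bcl-2 from the human MRP8 promoter in myeloid cells. All mice, the wild type included, had received 2 mL of thioglycollate medium in the peritoneal cavity, and the labels place the collection 6 h later, so no group is unstimulated and the marrow is the marrow of a mouse with peritonitis. The labels do not give the age of the mice. Libraries are named here by their number in the sequencing pool: 4, 5 and 6 for BM WT, 10, 11 and 12 for PT WT, 1, 2 and 3 for BM Bcl2, and 7, 8 and 9 for PT Bcl2.

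Ly6 proteins are small cell surface proteins held in the membrane by a lipid anchor. Ly6G marks mouse neutrophils, Ly6C marks monocytes and, at a lower level, neutrophils, and the Gr-1 antibody binds both. Retnlg encodes a secreted protein of the resistin family and is abundant in mature marrow and blood neutrophils. Stefins A are small cytosolic inhibitors of cysteine cathepsins, and mice hold a cluster of stefin A genes on chromosome 16, of which several are strongly expressed in neutrophils. The study identified neutrophils with markers that included the Gr-1 antibody, but its RNA-seq methods do not state the gate of this sort. If the same gate was used, the proteins of Ly6g, Ly6c1 and Ly6c2 took part in the choice of the cells. Their RNA was not part of the gate.

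The 3 Ly6 genes lie on chromosome 15 within 75044018-75159126 (GRCm38, GENCODE M21): Ly6c1 at 75044018-75048830, Ly6c2 at 75108158-75111970 and Ly6g at 75155240-75159126. Retnlg lies on chromosome 16 at 48872621-48874496. The stefin A genes lie on the same chromosome, with Stfa2l1 at 36156811-36161953, Stfa1 at 36276951-36285373, Stfa2 at 36403992-36408457 and Stfa3 at 36450537-36455392. How far a level belongs to 1 row depends on how much sequence the transcripts share. Of the 31-base stretches in the annotated transcripts, Stfa2l1 shared 41.6% with other genes, 29.3% with Stfa2, and Stfa2 shared 33.3%, 25.9% with Stfa2l1. Stfa1 shared 43.8%, most of it with the stefin A-like gene BC100530 (39.0%), and Stfa3 shared none. Ly6c1 shared 33.0% with Ly6c2, Ly6c2 shared 21.4% with Ly6c1, Ly6g shared 9.55% with other genes, and Retnlg shared 5.51%, all with Retnla. The values of Stfa1, Stfa2, Stfa2l1, Ly6c1 and Ly6c2 are therefore uncertain as to the single gene, and sums over them are given as well. The reference is not of the FVB strain, and the effect of strain differences in these families was not tested.

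The 150 bases before the RefSeq start of the 4 stefin A genes are shown so that the likeness of these genes, whose levels are hard to assign to 1 row, can be seen, and the window of Retnlg is shown because the ratio of Stfa2l1 to Retnlg separated the sites. Sequences are from RefSeq (GRCm38.p6), written 5′ to 3′ on the strand of the gene. Capitals mark matches to TTNNGNAA or its reverse TTNCNNAA, letters of C/EBP sites, and to GAGGAA or its reverse TTCCTC, letters of PU.1 sites, both being factors of the granulocyte lineage.
Stfa2l1: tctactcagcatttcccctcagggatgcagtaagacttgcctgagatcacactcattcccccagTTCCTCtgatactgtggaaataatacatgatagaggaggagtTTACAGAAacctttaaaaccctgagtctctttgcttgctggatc
Stfa2: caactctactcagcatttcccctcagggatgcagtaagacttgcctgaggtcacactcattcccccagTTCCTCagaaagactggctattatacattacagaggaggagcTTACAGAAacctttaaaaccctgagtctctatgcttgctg
Stfa1: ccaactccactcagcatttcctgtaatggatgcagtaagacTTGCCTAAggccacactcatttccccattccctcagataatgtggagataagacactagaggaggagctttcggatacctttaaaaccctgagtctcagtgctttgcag
Stfa3: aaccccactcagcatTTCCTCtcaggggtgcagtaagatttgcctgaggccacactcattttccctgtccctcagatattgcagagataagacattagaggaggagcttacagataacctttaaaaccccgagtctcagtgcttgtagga
Retnlg: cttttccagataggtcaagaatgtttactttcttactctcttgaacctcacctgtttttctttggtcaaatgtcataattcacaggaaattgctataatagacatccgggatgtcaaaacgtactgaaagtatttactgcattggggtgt

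These windows are chr16:36156661-36156810 (plus strand) for Stfa2l1, chr16:36408364-36408513 (minus strand) for Stfa2, chr16:36276998-36277147 (plus strand) for Stfa1, chr16:36455393-36455542 (minus strand) for Stfa3 and chr16:48872458-48872607 (plus strand) for Retnlg. RefSeq starts Stfa1 and Stfa2 later than GENCODE does, so all 150 bases of the Stfa1 window and 94 bases of the Stfa2 window lie inside the GENCODE gene given above, and 0 bases of the other windows shown do. The windows of Stfa2l1 and Stfa2 were identical at 86.4% of aligned positions, and the other pairs of stefin A windows at 78.1% to 84.3%. Stfa2l1 and Stfa2 held the same matches, TTACAGAA 44 and 40 bases and TTCCTC 86 and 82 bases before the start. Stfa1 held only the C/EBP letters TTGCCTAA, Stfa3 only TTCCTC, and the window of Retnlg held neither. Of 32851 windows of this length in the table of mouse promoters, 22.7% held the C/EBP letters and 14.5% the PU.1 letters, so such matches are common and describe the windows only.

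The marrow libraries carried the RNA of granulocyte precursors, and the peritoneal libraries carried far less. Over 7 granule genes of immature neutrophils (among them Mpo, Elane, Ltf, Camp and Ngp) the summed level was 16353 to 45109 TPM in the 6 BM libraries and 345 to 1171 TPM in the 6 PT libraries. TPM is a share of all transcripts of a library, corrected for transcript length. The neutrophil calprotectin genes S100a8 and S100a9 also fell, with log2 changes from BM to PT of -3.62 and -3.73 in WT mice and of -2.37 and -2.24 in MRP8-Bcl2 mice. Other neutrophil markers went both ways. In WT mice Csf3r, Itgam and Cxcr2 changed by 1.93, 0.73 and 0.88, and Mmp8 and Mmp9 by -4.15 and -1.27. In MRP8-Bcl2 mice these changes were 3.38, 1.10 and 1.91, and -2.72 and -0.36. Peritoneal macrophage markers, of which 6 of 7 were found and Adgre1 was not, summed to at most 49.2 TPM in any library. Gata6 was at 0 in 3 of the 4 groups. Monocyte markers summed to 1645 TPM in library 3 (BM Bcl2) and to at most 346 TPM elsewhere. Mast cell markers reached 633 TPM in library 12 (PT WT). B cell markers summed to 78.3 to 207 TPM in PT WT, 34.4 to 145 TPM in PT Bcl2 and at most 75.9 TPM in BM. Erythroid markers reached 383 TPM in library 1 (BM Bcl2) and at most 78.4 TPM elsewhere. T cell, eosinophil and endothelial markers summed to at most 22.1 TPM. Reads assigned to mouse Bcl2, the check of the transgene, gave 58.6 to 333 TPM in 5 libraries of MRP8-Bcl2 mice, but 0.695 TPM in library 9, labelled PT Bcl2, within the 0.219 to 2.37 TPM of the WT libraries. Genes with a run of 31 or more A or T took 50.8% to 65.6% of the TPM of libraries 8, 9, 10 and 11 and 8.93% to 24.1% of the others. The table gives TPM and no read totals, so the depth behind each value is unknown, a value of 0 means listed at 0, and a lower level cannot be told apart between fewer cells of a type and less RNA per cell.

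Ly6g and Ly6c2 were both lower in the peritoneum than in the marrow of WT mice, and in MRP8-Bcl2 mice the fall passed the test for Ly6c2. Ly6g stood at 588, 1059 and 1266 TPM in BM WT and at 13.1, 14.9 and 0 TPM in PT WT, so the groups were far apart. In MRP8-Bcl2 mice it stood at 1225, 203 and 51.5 TPM in BM and at 58.9, 60.4 and 126 TPM in PT, and there the groups overlapped through BM library 3. The mean fell from 971 ± 347 to 9.36 ± 8.15 TPM in WT (SD, n = 3) and was 493 ± 638 against 81.7 ± 38.1 TPM in MRP8-Bcl2 mice. On the log2(TPM + 1) scale the change of Ly6g was -7.25 in WT mice (SE 1.08, adjusted p = 0.0031), against -1.60 in MRP8-Bcl2 mice (95% interval -3.90 to 0.69, adjusted p = 0.293), by limma fitted over 13456 genes. PT Bcl2 lay above PT WT by 3.67, a difference that did not pass the test (adjusted p = 0.254) and rests on low PT WT levels. Without library 9, which had mouse Bcl2 at the level of WT, it was 3.32 (adjusted p = 0.243). The difference between the changes of the 2 genotypes was 5.64 (adjusted p = 0.212), so Ly6g was not shown to respond differently in MRP8-Bcl2 mice. Without BM library 3 the change of Ly6g in MRP8-Bcl2 mice was -2.69 (adjusted p = 0.116). The difference between the genotypes was then 4.56 (adjusted p = 0.372).

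Ly6c2 had the smallest standard error of the 7 genes that could be tested. It stood at 325, 466 and 1006 TPM in BM WT and at 60.0, 22.7 and 33.1 TPM in PT WT. In MRP8-Bcl2 mice the levels were 505, 383 and 1187 TPM in BM and 34.3, 35.3 and 39.8 TPM in PT. Each marrow library was above each peritoneal library, and in both sites the genotypes overlapped. Ly6c2 fell by 3.87 on the log2 scale in WT mice (SE 0.58, adjusted p = 0.0033), and in MRP8-Bcl2 mice by 4.04 (SE 0.58, adjusted p = 0.00098). The changes of the 2 genotypes differed by -0.17 (95% interval -1.92 to 1.58). Of the 6 monocyte markers, 0 passed as lower in PT of WT mice and 4 in MRP8-Bcl2 mice, where 1.22% and 19.1% of all tested genes did. Their median changes were -0.36 and -2.71, and their part in the fall of Ly6c2 was not tested. In BM Bcl2 the highest level of Ly6c2 was in library 3, which also had the highest monocyte markers, with Ccr2 at 213 TPM against 17.4 to 47.2 TPM in the other BM libraries. Without library 3 the change of Ly6c2 was -3.56 (adjusted p = 0.00686), and without library 9 the change was -4.10 (adjusted p = 0.00265). Divided by S100a8 and S100a9, which fell as well, the change of Ly6c2 was -0.24 in WT and -1.77 in MRP8-Bcl2 mice and passed in neither (adjusted p = 0.814 and 0.216), whereas that of Ly6g in WT was -4.08 (adjusted p = 0.0238). On that scale the median of all tested genes was 3.10 in WT and 0.50 in MRP8-Bcl2 mice.

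Ly6c1, the neighbour that shares sequence with Ly6c2, was listed at 0 in 9 of the 12 libraries. It had 0.909 and 0.586 TPM in libraries 10 and 11 (PT WT) and 4.97 TPM in library 2 (BM Bcl2). It did not reach 1 TPM in 3 libraries and was not tested. The sum of Ly6c1 and Ly6c2 was 599 ± 359 TPM in BM WT, 39.1 TPM in PT WT, 693 TPM in BM Bcl2 and 36.5 TPM in PT Bcl2, nearly all of it Ly6c2. The ratio of Ly6g to Ly6c2 within a library, which no scaling of the library can change, was 1.26 to 2.27 in BM WT and 0 to 0.658 in PT WT. In MRP8-Bcl2 mice it was 0.0434 to 2.42 in BM and 1.71 to 3.16 in PT. Ly6g thus exceeded Ly6c2 in each PT Bcl2 library and in none of PT WT, where Ly6g was low. The highest PT Bcl2 ratio, 3.16, came from library 9, which had mouse Bcl2 at the level of WT. This ratio was given no test, and Ly6g itself did not pass between the genotypes in PT.

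**Figure D1:**
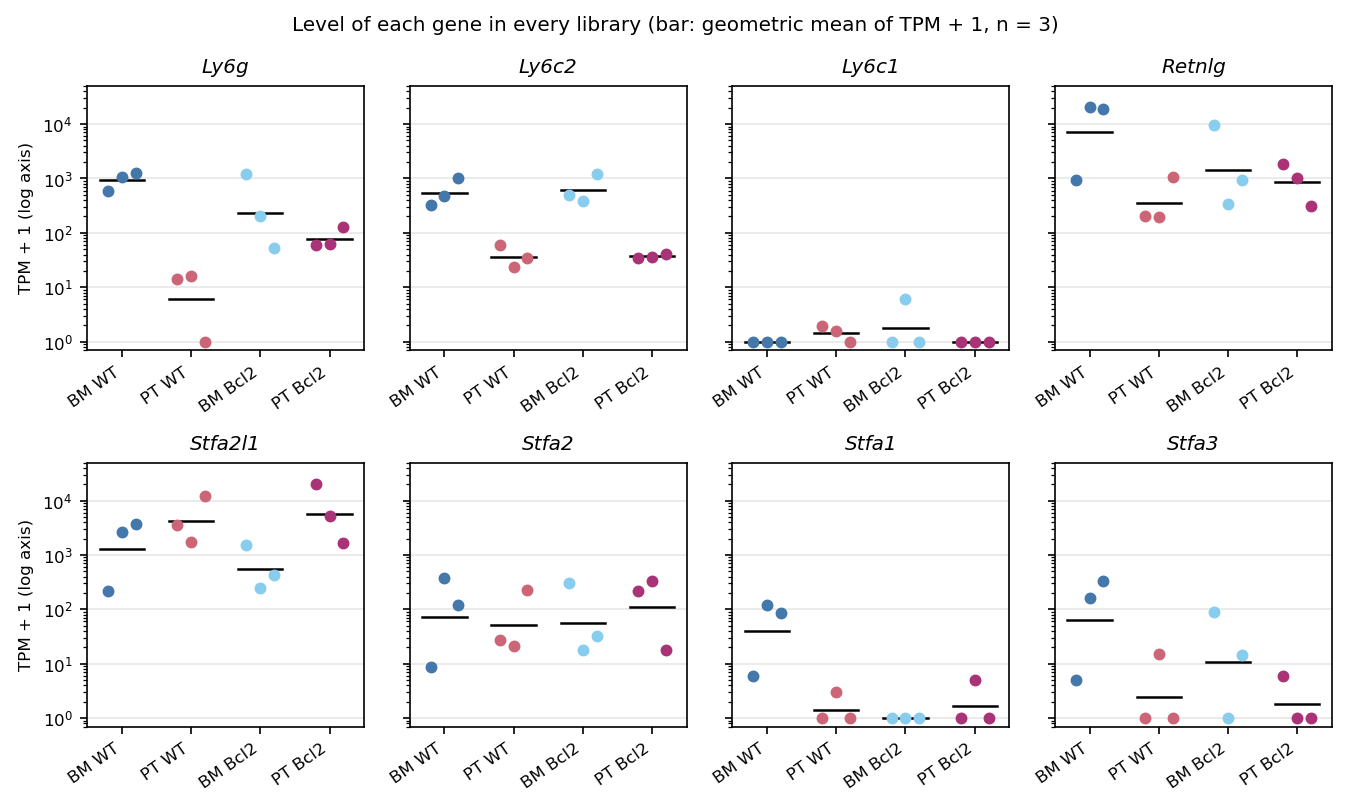
Level of each of the 8 genes in every library, as TPM + 1 on a log axis. Points are libraries in the order of their number within a group (3 a group), bars are geometric means, and a point at 1 is a gene listed at 0. Ly6c2 is lower in all 6 PT libraries than in all 6 BM libraries, Ly6g is near 0 in PT WT, and Stfa2l1 spreads from 219 to 20486 TPM.

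Retnlg had the highest mean level of the 8 genes in marrow of both genotypes, and it spread widely within each group. It stood at 928, 20198 and 18941 TPM in BM WT, up to 2.20% of all TPM of a library. In PT WT it stood at 199.7, 193 and 1074 TPM. In MRP8-Bcl2 mice the levels were 9407, 343 and 953 TPM in BM and 1867, 1037 and 316 TPM in PT. The groups overlapped in both genotypes, through library 4 in WT. The log2 change between the sites was -4.35 in WT (95% interval -7.02 to -1.69, adjusted p = 0.0799) and -0.77 in MRP8-Bcl2 mice (95% interval -3.44 to 1.89, adjusted p = 0.679). Without BM WT library 4 the change in WT was -5.82 and passed the test (adjusted p = 0.0306), and it passed without BM Bcl2 library 1 as well (adjusted p = 0.0461). The genotypes differed by -2.28 in BM (adjusted p = 0.704) and by 1.29 in PT (adjusted p = 0.666), in neither case beyond the spread.

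The low marrow values of Retnlg came with high levels of Elane, Mpo and Prtn3, but not of all granule genes of immature neutrophils. Elane, which encodes neutrophil elastase of the primary granules, stood at 1171, 159 and 363 TPM in BM WT libraries 4, 5 and 6 and at 484, 1430 and 3557 TPM in BM Bcl2 libraries 1, 2 and 3. Mmp8, the collagenase stored late in granule formation, stood at 279, 3403 and 2224 TPM and at 1721, 118 and 273 TPM in the same libraries. Libraries 4, 2 and 3 thus were low in Retnlg and Mmp8 and high in Elane, and libraries 5, 6 and 1 the reverse. Mpo and Prtn3 were also higher in libraries 4, 2 and 3 than in libraries 5, 6 and 1. Camp, Ltf, Ngp and Lcn2 had their lowest BM levels in library 3, at 2844, 376, 2630 and 2675 TPM. That library also had the highest monocyte markers. The part of this spread between marrow libraries in the comparisons of Retnlg and of the stefin A genes was not tested. Over the 12 libraries the tested genes whose pattern was most like that of Retnlg, by Pearson's r of log2(TPM + 1), were Mmp8 (0.921), Mmp9 (0.906) and the unnamed gene model Gm12138 (0.890). For Ly6g they were Pglyrp1, a peptidoglycan recognition protein of granules (0.909), the neutrophil surface antigen gene Cd177 (0.891) and Adpgk (0.889). These values describe 4 groups of libraries that share their site and their scale, and are not tests.

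Stfa2l1 was higher in the peritoneum of MRP8-Bcl2 mice than in their marrow, and was the main stefin A gene in every library. It stood at 219, 2590 and 3710 TPM in BM WT and at 3598, 1724 and 12363 TPM in PT WT. In MRP8-Bcl2 mice it stood at 1554, 247 and 423 TPM in BM and at 20486, 5201 and 1673 TPM in PT. The groups overlapped in WT and did not in MRP8-Bcl2 mice, where the gap between the lowest PT and the highest BM library was small. The log2 change was 1.73 in WT (95% interval -0.61 to 4.06, adjusted p = 0.461) and 3.36 in MRP8-Bcl2 mice (SE 1.10, adjusted p = 0.0413), and the 2 changes did not differ by test (1.64, adjusted p = 0.571). The call in MRP8-Bcl2 mice held without library 9 (4.24, adjusted p = 0.0243). It was lost without any one of libraries 2, 3, 7 and 8, with changes of 2.79, 3.18, 2.43 and 3.42 (adjusted p = 0.136, 0.117, 0.152 and 0.0810). Divided by S100a8 and S100a9, Stfa2l1 was higher in PT of both genotypes, by 5.39 in WT (adjusted p = 0.000217) and by 5.66 in MRP8-Bcl2 mice (adjusted p = 0.000693). That scale raised most genes in WT, where 61.4% of all tested genes were called higher on it, so the WT call is not particular to Stfa2l1, and in MRP8-Bcl2 mice 8.92% were.

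Stfa2, whose transcript shares sequence with Stfa2l1, stood far below it. Its levels were 7.66, 373 and 119.7 TPM in BM WT and 26.5, 19.9 and 230.5 TPM in PT WT. In MRP8-Bcl2 mice they were 302, 16.9 and 31.6 TPM in BM and 212, 337.5 and 16.7 TPM in PT. All 4 groups overlapped, and the changes of -0.52 in WT (95% interval -3.59 to 2.56) and 0.95 in MRP8-Bcl2 mice (95% interval -2.13 to 4.03) did not pass the test. The ratio of Stfa2l1 to Stfa2 had medians of 28.6 in BM WT, 13.4 in BM Bcl2, 86.6 in PT WT and 96.6 in PT Bcl2, with a range from 5.14 to 136 over the 12 libraries. The listed levels of the 2 rows therefore were not in a fixed proportion. How reads of their shared sequence were assigned is not known, and Stfa2 was low in several libraries, so the ratio is uncertain.

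Stfa1 was lower in the peritoneum than in the marrow of WT mice, and Stfa3 had a change of similar size that did not pass. Stfa1 stood at 4.85, 119.6 and 85.0 TPM in BM WT and at 0, 1.97 and 0 TPM in PT WT, with a log2 change of -4.77 (SE 1.04, adjusted p = 0.0247). Stfa1 was listed at 0 in all 3 BM Bcl2 libraries and at 0, 3.93 and 0 TPM in PT Bcl2. Outside BM WT it reached 1 TPM only in libraries 11 and 8. It therefore met the filter of 1 TPM in 3 libraries only through BM WT, where it was high, and its call is not independent of that filter. The call in WT was lost without library 5, 6, 10 or 12 (adjusted p = 0.0721, 0.0826, 0.0968 and 0.0822). The lower level of Stfa1 in BM Bcl2 than in BM WT did not pass (adjusted p = 0.151) but did without library 4 (adjusted p = 0.00998). BC100530, with which Stfa1 shares sequence, stood at 165, 61.0 and 26.4 TPM in the same BM Bcl2 libraries, so the zeros of Stfa1 did not extend to its relative. Summed, Stfa1, BC100530 and BC117090 gave 27.5, 248 and 227 TPM in BM WT and 171, 61.0 and 64.4 TPM in BM Bcl2, which overlapped. The same sum was 4.24, 18.4 and 339 TPM in PT WT, so the WT groups overlapped as well. Stfa3, which shares no 31-base stretch with another gene, stood at 3.96, 159.7 and 329 TPM in BM WT and at 0, 14.2 and 0 TPM in PT WT. In MRP8-Bcl2 mice it stood at 87.9, 0 and 13.3 TPM in BM and at 4.95, 0 and 0 TPM in PT. Its changes of -4.69 in WT (adjusted p = 0.168) and -2.58 in MRP8-Bcl2 mice (adjusted p = 0.285) did not pass the test.

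**Figure D2:**
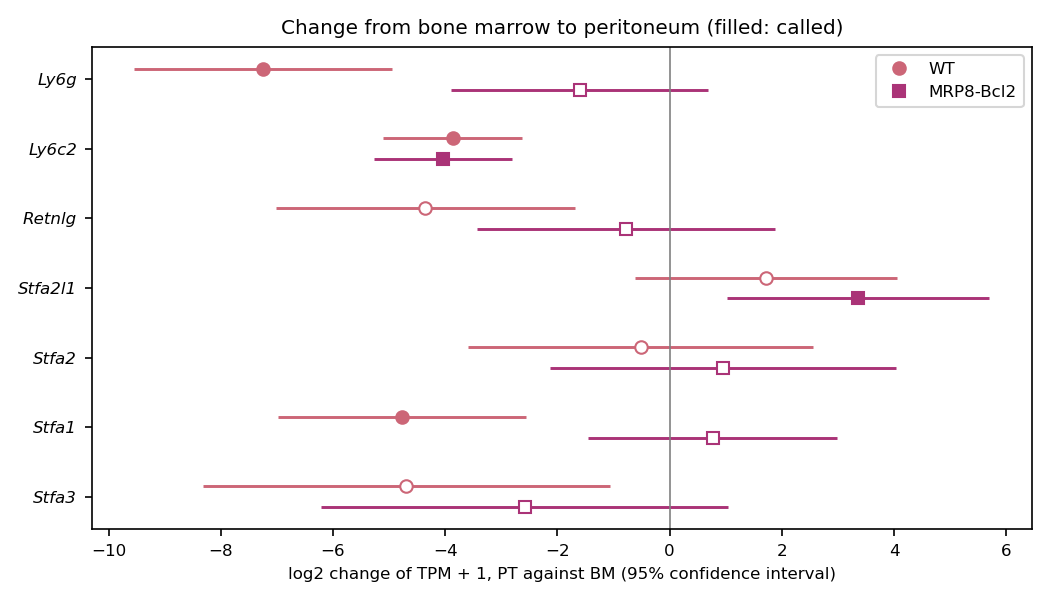
Change of each tested gene from marrow to peritoneum as log2 of TPM + 1, with 95% confidence intervals from the limma fit (3 libraries a group). Circles are WT, squares MRP8-Bcl2, and filled symbols passed the test. Ly6c2 is filled in both genotypes, at -3.87 and -4.04, Ly6g and Stfa1 in WT and Stfa2l1 in MRP8-Bcl2 mice.

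The summed stefin A level thus followed Stfa2l1. The sum was 236, 3241 and 4244 TPM in BM WT and 3625, 1760 and 12593 TPM in PT WT, with means of 2574 and 5993 TPM. In MRP8-Bcl2 mice it was 1944, 264 and 468 TPM in BM and 20703, 5543 and 1690 TPM in PT, with means of 892 and 9312 TPM. The ratio of the means, PT over BM, was 2.33 in WT and 10.4 in MRP8-Bcl2 mice, and the groups overlapped in each genotype. Without BM WT library 4 the log2 change of the sum in WT was 0.22 in place of 1.54. Stfa2l1 made up 79.9% to 93.6% of the sum in the BM libraries and 93.8% to 99.3% in the PT libraries, and Stfa1 and Stfa3 together with Stfa2 made up the rest. In PT Bcl2 library 7 the stefin A genes took 2.19% of all TPM. Libraries 7 and 12, with the highest stefin A sums, were the PT libraries in which genes with long A or T runs took the least, 15.5% and 20.0%. The overlap of the sums is that of the deposited levels, in which those genes are counted. In MRP8-Bcl2 mice it came from PT library 9 (1690 TPM) lying below BM library 1 (1944 TPM). Those genes took 65.6% of the TPM of library 9 and 18.8% of library 1, so this overlap depends on their being counted. A scaling without them was among the alternatives, and the part of those runs in the levels was not otherwise tested. The genes most like the stefin A sum over the 12 libraries were Gm5483, a further stefin A-like gene of the cluster (r = 0.983), the receptor gene Tlr2 (0.949) and the transporter gene Slc15a3 (0.949).

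Within a library, Stfa2l1 and Retnlg changed places between the sites. The ratio of Stfa2l1 to Retnlg was 0.236, 0.128 and 0.196 in BM WT and 0.165, 0.722 and 0.444 in BM Bcl2. It was 18.0, 8.96 and 11.5 in the PT WT libraries, and the PT Bcl2 libraries had 11.0, 5.02 and 5.29. Retnlg was therefore above Stfa2l1 in all 6 marrow libraries and below it in all 6 peritoneal libraries. Scaling of a library as a whole does not change this. The ratio was chosen after the values had been seen and is given without a test. The ratio of Stfa2l1 to its relative Gm5483 moved much less, between 1.17 and 3.42 over the 12 libraries.

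**Figure D3:**
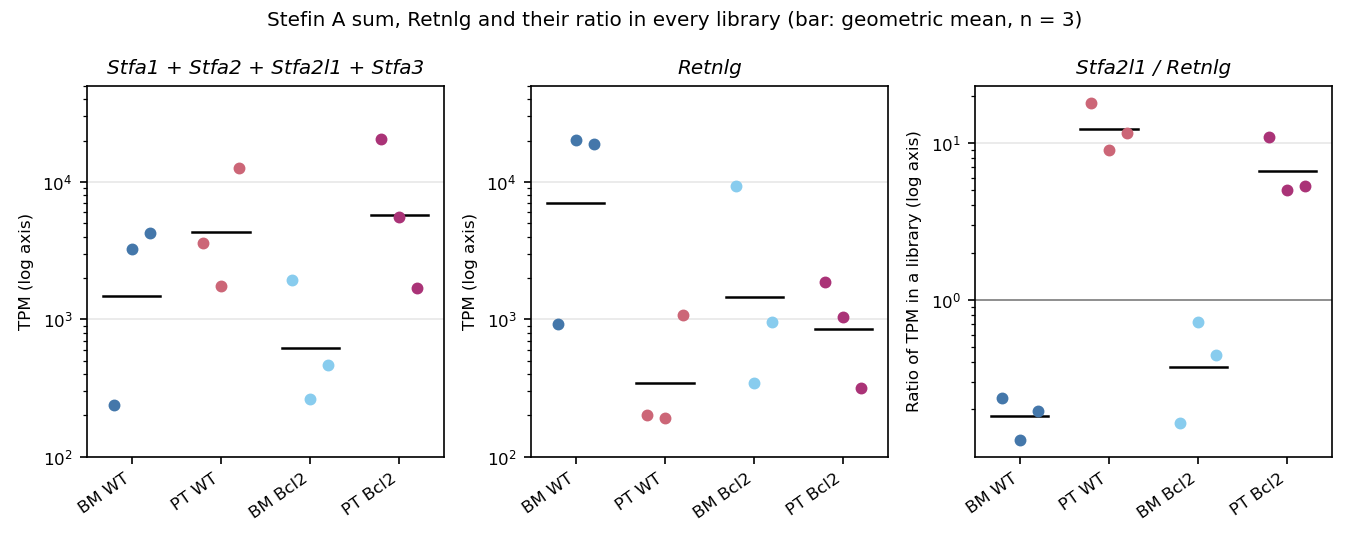
Summed TPM of the 4 stefin A genes, TPM of Retnlg, and the ratio of Stfa2l1 to Retnlg in every library, on log axes. Points are libraries and bars are geometric means (3 libraries a group). The levels overlap between sites, while the ratio lies between 0.128 and 0.722 in BM and between 5.02 and 18.0 in PT.

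Of the 8 genes, 7 could be tested. A gene was called where the adjusted p was under 0.05 and the change at least 2-fold. From BM to PT in WT, 3 of the 7 were called, all lower (Ly6g, Ly6c2 and Stfa1), of which Stfa1 met the filter only through BM WT. Of all tested genes 2.81% were called, 1.22% lower and 1.59% higher. No member was called higher by limma (0 of 7). At an unadjusted p under 0.05 and at least 2-fold, 5 of 7 were lower, where 6.32% of all were, and 0 higher, where 10.2% were. In MRP8-Bcl2 mice 1 was called lower (Ly6c2), where 19.1% of all tested genes were, and 1 higher (Stfa2l1), where 2.31% were (21.4% in either direction). The median log2 change of the 7 genes was -4.35 in WT and -0.77 in MRP8-Bcl2 mice, beside 0.22 and -1.02 over all tested genes. The shift of all genes depended on the scaling. With each library centred on its median, the changes were -7.46 for Ly6g and -4.08 for Ly6c2 in WT, and -2.45 for Ly6c2 and 4.95 for Stfa2l1 in MRP8-Bcl2 mice, all still called. With that centring 0.832% of all tested genes were called higher and 1.46% lower in WT, and 12.2% and 3.47% in MRP8-Bcl2 mice. Relative to S100a8 and S100a9 the shares were 61.4% higher and 0.253% lower in WT mice, while MRP8-Bcl2 mice had 8.92% and 1.64%. With the A or T run genes left out, WT gave 479 genes higher and 113 lower, in place of 214 and 164, and MRP8-Bcl2 gave 565 and 1077, in place of 311 and 2567.

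Between the genotypes, none of the 7 genes passed the test at either site. In BM, 0 were called by limma, where 0.0223% of all tested genes were (0.0149% higher and 0.00743% lower), and 1 (Stfa1) was lower at an unadjusted p under 0.05, where 0.751% of all were. In PT, 0 were called, where 0.0297% of all were, and 1 (Ly6g) was higher at an unadjusted p under 0.05, where 0.446% of all were. For the difference between the changes of the 2 genotypes, 0 were called, where 0.0149% of all were, and 2 (Ly6g and Stfa1) had a positive difference at an unadjusted p under 0.05, where 0.364% of all did. Stfa1 was tested only because of its BM WT levels, so its differences are not independent of the filter. The intervals of the genotype differences were wide. For Ly6c2 in PT the interval ran from -1.21 to 1.26 on the log2 scale, and for Stfa2l1 in PT from -1.93 to 2.74.

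Relatives of these genes were read from fixed lists. Of 19 other Ly6 family genes, 16 were in the table and 11 were tested. In WT 2 were called lower and 0 higher, where 1.22% of all genes were lower, and the list median was 0.19 beside 0.22 over all genes. In MRP8-Bcl2 mice 3 were lower and 0 higher, where 19.1% of all genes were lower, and the list median was -0.74 beside -1.02. Cd177, whose protein is carried on neutrophils, fell by 5.35 in WT (adjusted p = 0.00524) and by 3.23 in MRP8-Bcl2 mice (adjusted p = 0.0181), from means of 683 and 745 TPM to 24.3 and 81.9 TPM. Ly6f, at 5.64 to 24.6 TPM in BM, fell by 3.28 in WT (adjusted p = 0.0315) and by 2.35 in MRP8-Bcl2 mice (adjusted p = 0.0386). With each library dropped in turn, its call was lost in 5 of 12 fits in WT, without library 4, 6, 10, 11 or 12, and in 7 of 12 in MRP8-Bcl2 mice, without library 1, 2, 3, 7, 8, 9 or 11 (adjusted p up to 0.0992 and 0.123). Ly6i fell by 4.76 in MRP8-Bcl2 mice (adjusted p = 0.00329), from a mean of 47.3 to 0.950 TPM, and had a change of -2.72 in WT (adjusted p = 0.118). With libraries centred on their medians, the calls of Cd177 and Ly6f in MRP8-Bcl2 mice were lost (adjusted p = 0.285 and 0.555), while those of both in WT and of Ly6i in MRP8-Bcl2 mice held. The other 8 tested Ly6 genes, among them Ly6a and Ly6e, passed in neither genotype.

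Of the resistin family besides Retnlg, Retnla and Retn were tested. Retnla, which is produced by macrophages under type 2 signals, was listed at 0 in all 3 BM WT libraries and stood at 25.5, 23.9 and 330 TPM in PT WT (adjusted p = 0.0112). In PT Bcl2 it stood at 0, 1.52 and 7.77 TPM, and the difference of -4.42 from PT WT did not pass (adjusted p = 0.169). Its highest value came from library 12, which also had the highest mast cell markers. Retn, which encodes resistin, lay between 0 and 17.7 TPM throughout, with changes of -0.70 and -0.24.

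Among 7 other stefins and cystatins in the table, only Cstb was called, higher in PT of both genotypes, where 1.59% of all genes were in WT and 2.31% in MRP8-Bcl2 mice. Cstb encodes stefin B, the ubiquitous relative of the stefins A. It stood at 54.7 to 57.2 TPM in BM WT and at 833, 591 and 115 TPM in PT WT, a rise of 2.76 on the log2 scale (adjusted p = 0.0474). In MRP8-Bcl2 mice it stood at 40.5 to 80.3 TPM in BM and at 1678, 533 and 451 TPM in PT, a rise of 3.76 (adjusted p = 0.0034). With each library dropped in turn, the call in WT was lost in 10 of 12 fits and that in MRP8-Bcl2 mice in 0, and centring lost the WT call as well (adjusted p = 0.127). Gm5483 stood at 90.1 to 1664 TPM in BM WT and 701 to 10530 TPM in PT WT, with changes of 1.81 in WT and 2.74 in MRP8-Bcl2 mice that did not pass (adjusted p = 0.490 and 0.115). Of 8 tested cathepsins, the enzymes that stefins inhibit, 0 passed in WT and 1 was lower in MRP8-Bcl2 mice, where 19.1% of all genes were. That gene was Ctsh, which fell by 2.25 (adjusted p = 0.0477), a call that 9 of the 12 such fits and the centring (adjusted p = 0.552) lost.

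**Figure D4:**
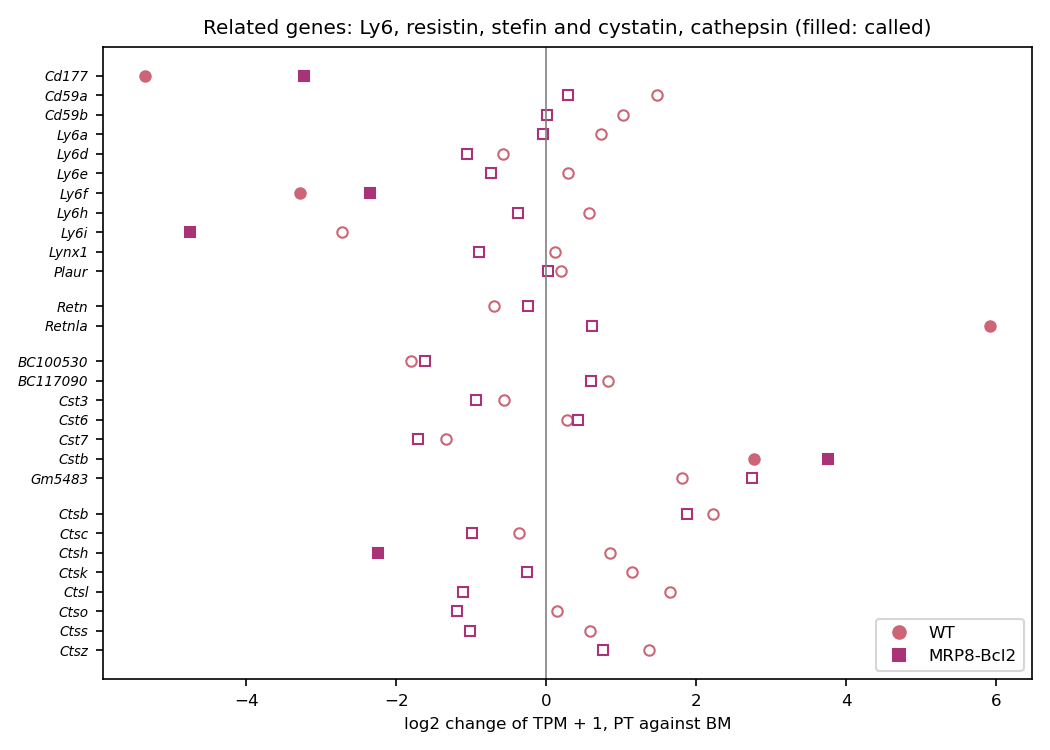
Change from marrow to peritoneum of the tested relatives, as log2 of TPM + 1, grouped as Ly6 family, resistin family, stefins and cystatins, and cathepsins. Circles are WT, squares MRP8-Bcl2, and filled symbols passed the test. Cd177 and Ly6f are filled on the lower side and Cstb on the higher side in both genotypes.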

How the data were processed

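The authors sorted BM and peritoneal cells of each mouse into Trizol and sequenced amplified cDNA. The labels give 6 h after thioglycollate, the study's methods 4 or 8 h. One label calls the cells macrophages, while the design text and methods call them neutrophils. The authors deposited log2(TPM + 1) per gene and library, made with AltAnalyze at default values. Aligner, version and build are not given in the sources used here. The deposited TPM averages per group matched the library columns. Deposited correlations, lineage scores and comparison counts were not used, nor were 2 columns of a library with no sample name.

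Libraries were assigned by their column names. The columns name no mouse, so p-values measure only the spread between these libraries. Values were back-transformed to TPM for levels, sums and ratios. The test was limma 3.58.1 (R 4.3.3) with a trend, all 12 libraries in 1 fit with 8 residual degrees of freedom, over the 13456 genes that reached 1 TPM in 3 or more libraries, a pseudocount of 1 TPM and Benjamini-Hochberg adjustment. On simulated data it called 49 of 98 genes changed by 4 on the log2 scale for PT against BM in WT. Of 102 genes changed by 2 it called 4. The simulated noise was independent between genes, with no shift of whole libraries. The members and lists were chosen with earlier results of these data known. Named were all 8 members, relatives called in any comparison, Retn, Cstb and Cd177, the 3 genes most like Ly6g, Retnlg and the stefin A sum, and Bcl2, S100a8 and S100a9. Other genes named (Mmp8, Elane, Mpo, Prtn3, Camp, Ltf, Ngp and Lcn2 by library, Ccr2, Gm5483, BC100530 and BC117090) were chosen after values were seen. The changes of the neutrophil markers Csf3r, Itgam, Cxcr2, Mmp8 and Mmp9 were also added after values were seen. Alternatives were other pseudocounts, filters, scalings, thresholds and fits, and leaving out each library.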

Additional observations from a re-analysis of the deposited data

How the results depend on the processing

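The 12 fits that each left out 1 library kept the calls of Ly6g in WT and of Ly6c2 in both genotypes. They gave 0 to 1 members called higher in MRP8-Bcl2 mice (1 with all libraries) and 0 to 1 called lower in BM by genotype (0 with all). The member called higher in MRP8-Bcl2 mice, Stfa2l1, was also lost (count 0) with no filter on low values, without the trend, with only the 2 groups compared in the fit, and at an adjusted p under 0.01. At an unadjusted p under 0.05, 5 members were lower in WT (3 by adjusted p), 1 was lower in BM by genotype, 1 was higher in PT by genotype, and 2 had a positive difference between genotypes (6.32%, 0.751%, 0.446% and 0.364% of all tested genes). Relative to S100a8 and S100a9, which fell themselves, 2 members were higher and 1 lower in WT (0 and 3 as deposited), where 61.4% and 0.253% of all tested genes were, and 0 lower in MRP8-Bcl2 mice. On that scale Stfa2 in WT turned from -0.52 to 3.07, the stefin A sum rose by 5.21 in WT and 5.51 in MRP8-Bcl2 mice (1.54 and 3.22 as deposited), and the sum of Ly6c1 and Ly6c2 changed by -0.22 and -1.77 (-3.85 and -4.04 as deposited). With the A or T run genes left out, the last of these was -3.28. Besides the libraries named with it, the WT call of Stfa1 was lost with a pseudocount of 0.1 TPM, with no filter, relative to S100a8 and S100a9, and with only the 2 groups fitted (adjusted p = 0.0589, 0.0669, 0.0918 and 0.0843). The causes were not tested. Summing only Stfa2 and Stfa2l1, an alternative chosen after seeing the data, gave 1.65 and 3.25. No paired analysis was possible because the columns carry no replicate number; BM and PT cells came from the same mice, which the fit does not model. With 3 libraries a group and unknown depth, changes within the wide intervals given could not be detected.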
